A study of Mus musculus with 7 samples.

Results

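The 10 genes described here belong to the interferon-inducible GTPase families and were measured in subcutaneous mouse pancreatic ductal adenocarcinoma (PDA) tumors. They are the guanylate-binding protein (GBP) genes Gbp2, Gbp3, Gbp5, Gbp6, Gbp7 and Gbp9 and the immunity-related GTPase (IRG) genes Igtp, Irgm1, Irgm2 and Iigp1. The members were listed by name and matched by symbol, and 10 of the 22629 rows of the count table were theirs. All 10 passed the filter on low counts, which kept 17489 genes.

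The table held the RNA-seq counts of 7 tumors, 3 formed with sgScramble cells (tumors 1, 4 and 5) and 4 formed with sgScramble-icOVA cells (tumors 15, 16, 18 and 2), all harvested 2 weeks after inoculation of C57BL/6 mice. The question was how tumors of cells that carry a foreign antigen differ from control tumors. Both groups came from the KPC line 1242, taken from a mouse pancreatic tumor in which Pdx1-Cre acts in the pancreas, and carried SpCas9 with a scrambled guide from a lentivirus selected with puromycin. The icOVA cells also carried a doxycycline-inducible, cytoplasmic form of ovalbumin on a lentiviral vector with green fluorescent protein. They were sorted and grown from single cells. The antigen and the clone cannot be told apart unless the sgScramble tumors came from the same cells without doxycycline. The paper formed such tumors for staining and growth curves but does not say so for the RNA-seq. Ovalbumin was switched on by doxycycline in the food from the day of inoculation. The sources used here do not state whether the mice with sgScramble tumors also received it, or whether the sgScramble cells were a pool or a clone or carried the ovalbumin vector. Cells were placed in the right flank and tumors were sequenced one by one, but the sources name no mouse for any tumor, so the p values measure only the spread between these samples.

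GBPs and IRGs are GTPases that cells make after exposure to interferons, above all interferon gamma (IFN-γ). They gather on the membranes around intracellular microbes, on bacteria and on some of the cell's own membranes, and some of them help to start inflammasome signaling. IFN-γ signals through the kinases JAK1 and JAK2 to promoter elements called gamma-activated sites (GAS), and it induces IRF1, a factor that binds interferon-stimulated response elements (ISRE). Epithelial cells, fibroblasts, endothelial cells and leukocytes can all make these GTPases, so the RNA of a whole tumor does not say which cells made them. In bulk tumors fewer cells of a type and less RNA per cell cannot be told apart.

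Promoter sequences of RefSeq on GRCm38.p6 were examined for 7 of the 10 genes, in 8 windows (Gbp3 has 2 starts). Each window ran from 250 bases before to 50 bases after a start. The letters of the ISRE core (GAAANNGAA, either strand) occurred in 7 of the 8 windows and in all 7 genes, against 8.56% of the 32851 windows of 300 bases in the table. The GAS letters (TTCNNNGAA, which reads alike on both strands) occurred in 4 of the 8 windows, those of Gbp5, Gbp7, Igtp and Irgm2, against 8.3% of all windows, and these 4 held both motifs, against 1.07%. These letters were not particular to the 10. In 8 windows of 8 other interferon-inducible GTPase genes, ISRE letters occurred in 6, GAS letters in 4 and both in 4. The motifs were searched apart and may overlap. A match is a description of the letters and not a site of binding. Gbp6 and Gbp9 had no entry, and Iigp1 was left out of this description.

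The 120 bases before the start are shown for 5 genes, 5′ to 3′, with the matches in capitals. Gbp2 is shown because its level was the highest of the 10, Gbp7 because its difference between the groups was the largest, Igtp and Irgm2 because they are neighbors, and Gm12250 because it is the neighbor of Igtp outside the 10 that passed the test.
Gbp2, chr3:142620543-142620662, + strand: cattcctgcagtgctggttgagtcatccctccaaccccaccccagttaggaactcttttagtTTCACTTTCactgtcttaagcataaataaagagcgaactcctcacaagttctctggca
Gbp7, chr3:142530216-142530335, + strand: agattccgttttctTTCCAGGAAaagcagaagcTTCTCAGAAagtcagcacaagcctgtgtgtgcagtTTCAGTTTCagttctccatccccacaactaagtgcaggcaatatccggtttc
Gm12250, chr11:58183723-58183842, + strand: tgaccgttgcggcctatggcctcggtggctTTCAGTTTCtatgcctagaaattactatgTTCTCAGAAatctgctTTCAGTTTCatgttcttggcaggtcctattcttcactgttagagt
Igtp, chr11:58199436-58199555, + strand: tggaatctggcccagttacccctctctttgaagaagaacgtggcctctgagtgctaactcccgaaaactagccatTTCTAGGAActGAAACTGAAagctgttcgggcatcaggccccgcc
Irgm2, chr11:58214857-58214976, + strand: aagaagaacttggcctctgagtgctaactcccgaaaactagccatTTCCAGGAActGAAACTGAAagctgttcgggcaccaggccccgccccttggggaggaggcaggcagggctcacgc

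In Gbp2 the ISRE letters began 58 bases before the start. Gbp7 held GAS letters 106 and 87 bases and ISRE letters 52 bases before its start. In Igtp the GAS and ISRE letters lay 45 and 34 bases before the start, and in Irgm2 the same pair lay 75 and 64 bases before it. The stretches of Igtp and Irgm2 that are shown shared a run of 38 identical bases, and the longest run shared by the full windows was 61 bases. Gm12250, which encodes Irgb10, held ISRE letters 90 and 45 bases and GAS letters 61 bases before its start. All these starts are those of RefSeq, and they can differ from the gene coordinates given below. The start of Irgm2 used here lies inside its gene model, which begins at chr11:58199618. That of Gm12250 lies before its model, which begins at chr11:58187739.

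The 10 genes were abundant in both groups. Levels of different genes are compared as RPKM, computed here from the counts and the exonic length. Gbp2, whose protein gathers on pathogen vacuoles, had the highest level, with 1451 ± 191 RPKM (SD, n = 3) in sgScramble tumors and 1778 ± 390 RPKM (SD, n = 4) in icOVA tumors, and it was gene 15 of the 17489 tested when these were ranked by their mean level in sgScramble tumors. Gbp9, the lowest of the 10, had 30.1 ± 3.12 RPKM in sgScramble tumors and 34.2 ± 1.96 RPKM in icOVA tumors, and still stood above 90.7% of the genes tested.

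Between these ends the mean RPKM in sgScramble tumors was 421 for Igtp, 261 for Iigp1, 188 for Gbp3, 154 for Irgm1, 131 for Irgm2, 97.2 for Gbp6, 84.1 for Gbp7 and 52.3 for Gbp5. Each gene was above the next in 7 of 7 tumors, with the exception of Gbp6 and Gbp7, which kept this order in 5. Irgm1 and Irgm2, and Gbp6 and Gbp7, had overlapping ranges in the sgScramble tumors. In the icOVA tumors the ranges of Iigp1 and Gbp3, of Gbp3 and Irgm1, and of Irgm2 and Gbp6 overlapped as well. Gbp6 is the least certain of these levels, since 67.2% of the 76-base windows of its transcripts also occurred in transcripts of other genes, 61.6% in Gm43302 and 40.2% in Gbp10. The share was 11.2% for Gbp7, 7.66% for Igtp (all with Irgm2), and at most 4.66% for each of the other genes, with 0 for Irgm1 and Iigp1.

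The 10 genes lie on 4 chromosomes. On chromosome 3 of GRCm38, all on the + strand in the GENCODE M21 annotation, are Gbp5 (chr3:142493978-142522344), Gbp7 (chr3:142530342-142550149), Gbp3 (chr3:142560026-142573209) and Gbp2 (chr3:142620602-142638008). Gbp9 (chr5:105077630-105139539) and Gbp6 (chr5:105270702-105293698) are on the − strand of chromosome 5, where the model of Gbp9 overlaps those of Gbp4 and Gbp8. Irgm1 (chr11:48861968-48871683, − strand), Igtp (chr11:58199556-58207591) and Irgm2 (chr11:58199618-58222782, both + strand) are on chromosome 11, and the models of Igtp and Irgm2 overlap. Iigp1 (chr18:60376027-60392634, + strand) is on chromosome 18. The values given here count reads over whole genes, and how reads on overlapping models were counted is not given in the sources used here.

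None of the 10 genes passed the test for a difference between the groups. By the quasi-likelihood test of edgeR, after Benjamini-Hochberg adjustment over the whole set of genes, 0 of 10 were higher and 0 of 10 were lower in icOVA tumors, where 3.36% of all genes were higher and 2.54% were lower, 5.9% in all. At an unadjusted p under 0.05, 1 of 10 was higher (Gbp7), against 13.4% of all genes, and in 0 of 10 did the groups fail to overlap with the icOVA tumors above, against 11.3%. limma-voom called 0 of 10. DESeq2 called 1 of 10, again Gbp7, but it called more of all genes than edgeR did, 1558 higher and 1278 lower of 17489. The DESeq2 calls in the lists below stand beside these counts and not beside the edgeR shares. The fitted log2 fold changes were all above 0, from 0.07 to 0.47 with a median of 0.26, while the median over all genes tested was -0.005 and 49.4% of them were above 0. When libraries were scaled to the leukocyte gene Ptprc, all 10 were below 0 and the median of all genes was -1.10, a shift that left the members' median 0.29 above it, compared with 0.26 above it in the TMM scaling.

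Gbp2 had 3999.6, 3853 and 3102 CPM in sgScramble tumors 1, 4 and 5, and 4452, 5498, 3154 and 4788 CPM in icOVA tumors 15, 16, 18 and 2. The groups overlapped, because icOVA tumor 18 lay below sgScramble tumors 1 and 4. The fit gave a log2 fold change of 0.29 (SE 0.20, 95% interval -0.16 to 0.75, edgeR adjusted p 0.368). Gbp3 had 649.8, 637 and 556 CPM, and 715, 888, 551 and 779 CPM. Tumor 18 was the lowest of all 7 for Gbp3, and the other icOVA tumors were above every sgScramble tumor. Its log2 fold change was 0.26 (SE 0.16, interval -0.11 to 0.62, edgeR adjusted p 0.331).

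Gbp5, whose protein promotes assembly of the NLRP3 inflammasome, had 380.2, 357 and 304 CPM in sgScramble tumors 1, 4 and 5, and 419, 509, 268 and 462 CPM in icOVA tumors 15, 16, 18 and 2. Again tumor 18 was the lowest of the 7. The fitted log2 fold change was 0.26 (SE 0.21, interval -0.22 to 0.73, edgeR adjusted p 0.455).

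Gbp6 had 653, 602.5 and 480.2 CPM in sgScramble tumors and 713, 869.8, 536 and 743 CPM in icOVA tumors. Here 3 of the 4 icOVA tumors were above all sgScramble tumors. For Gbp6 the log2 fold change was 0.31 (SE 0.17, interval -0.098 to 0.71, edgeR adjusted p 0.295), and it was 0.34 when its counts were summed with those of Gbp10.

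Gbp7, whose protein takes part in assembly of the phagocyte oxidase, differed most of the 10. It had 489.5, 551 and 376 CPM in sgScramble tumors 1, 4 and 5, and 689, 756, 523 and 649 CPM in icOVA tumors 15, 16, 18 and 2. Tumor 18 lay between sgScramble tumors 1 and 4, and the other icOVA tumors were above both. The means were 472 ± 88.8 CPM (SD, n = 3) and 654 ± 97.8 CPM (SD, n = 4). Gbp7 had a log2 fold change of 0.47 (SE 0.16, interval 0.089 to 0.85), or 1.39 times, with an edgeR adjusted p of 0.12 (0.0217 before adjustment). DESeq2 gave it an adjusted p of 0.0382. Over the 7 fits that each left out a tumor, the edgeR adjusted p of Gbp7 ran from 0.0646 to 0.34.

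Gbp9 had the narrowest spread, with 168, 162 and 138 CPM in sgScramble tumors and 184, 185, 163.5 and 174 CPM in icOVA tumors. The groups overlapped only through tumor 18, which was below sgScramble tumor 1. Its log2 fold change of 0.18 (SE 0.089, interval -0.024 to 0.39) had an edgeR adjusted p of 0.231.

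The IRG genes are of 2 kinds. Igtp (also called Irgm3), Irgm1 and Irgm2 encode regulators that sit on the cell's own membranes and hold the other IRG proteins in check, and Iigp1 (also called Irga6) encodes an effector that loads onto parasite vacuoles. Igtp had 933, 887 and 734 CPM in sgScramble tumors 1, 4 and 5, and 1002, 1352, 775 and 1108 CPM in icOVA tumors 15, 16, 18 and 2. Its icOVA tumors were above all sgScramble tumors in 3 of 4, and the log2 fold change was 0.32 (SE 0.19, interval -0.12 to 0.75, edgeR adjusted p 0.309).

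Irgm1, which is needed for resistance of mice to mycobacteria, had 914, 989 and 780.0 CPM in sgScramble tumors and 923, 1108, 787 and 1016 CPM in icOVA tumors. Only tumors 16 and 2 were above all sgScramble tumors, and the log2 fold change was 0.10 (SE 0.14, interval -0.22 to 0.42, edgeR adjusted p 0.673). Irgm2 had 510.3, 498.5 and 436 CPM, and 491, 608, 391 and 532 CPM. Here too tumors 16 and 2 alone were above the sgScramble range, and tumor 18 was below it. The log2 fold change of Irgm2 was the smallest of the 10, at 0.07 (SE 0.15, interval -0.27 to 0.41, edgeR adjusted p 0.792), and it was -0.03 without tumor 16.

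Iigp1 had 1716, 1541 and 1303 CPM in sgScramble tumors 1, 4 and 5, and 1646, 1992, 1299 and 1710.2 CPM in icOVA tumors 15, 16, 18 and 2. Only tumor 16 was above all sgScramble tumors. In the fit the log2 fold change was 0.13 (SE 0.16, interval -0.24 to 0.50, edgeR adjusted p 0.637). The upper ends of these intervals, from 0.39 for Gbp9 to 0.85 for Gbp7, are the largest differences that the spread of 3 against 4 tumors leaves room for at the 95% level.

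**Figure D1:**
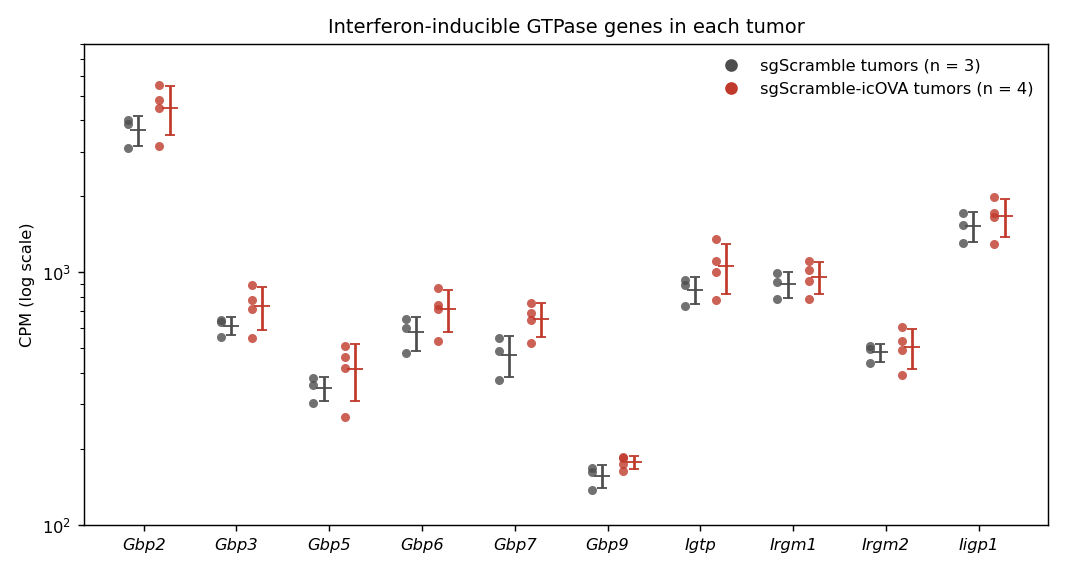
CPM of the 10 genes on a log scale. Each point is a tumor, gray for the 3 sgScramble tumors and red for the 4 sgScramble-icOVA tumors, and the bars beside the points are the mean ± SD. CPM takes no account of gene length, so heights compare tumors within a gene. The groups overlap for every gene, as for Gbp2 with 3102 to 3999.6 CPM and 3154 to 5498 CPM.

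Tumors ranked in much the same way for each of the 10 genes. Tumor 16 was the highest of the 7 tumors for 10 of 10 genes. Tumor 18 was the lowest icOVA tumor for 10 of 10, and tumor 5 was the lowest sgScramble tumor for 10 of 10. The lowest of all 7 was tumor 5 for 6 genes and tumor 18 for 4.

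Reads on the 10 genes made up 1.042% of all counts in sgScramble tumor 1, 1.013% in tumor 4 and 0.831% in tumor 5. In the icOVA tumors the share was 1.11% in tumor 15, 1.35% in tumor 16, 0.853% in tumor 18 and 1.201% in tumor 2. Tumor 18 thus held a smaller share than sgScramble tumors 1 and 4. The 95% Wilson interval, which covers counting error only, was 1.346% to 1.353% in tumor 16. Averaged over the 10 genes, log2 CPM was 9.38 ± 0.18 (SD, n = 3) in sgScramble tumors and 9.61 ± 0.27 (SD, n = 4) in icOVA tumors. The difference of 0.23 was smaller than the SD among the icOVA tumors.

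Markers of cell types also varied between the tumors. Their calls stand beside 3.36% of all genes higher and 2.54% lower in edgeR. The summed CPM of 5 epithelial markers (Krt8, Krt18, Krt19, Epcam and Cdh1), of which 0 passed the edgeR test, was 4150 to 4377 in sgScramble tumors. In icOVA tumors it was 4363 in tumor 15, 4624 in tumor 16, 2692 in tumor 18 and 4145 in tumor 2. The tumors with the highest and the lowest GTPase levels in this group were also highest and lowest for this sum. The order differed elsewhere. Tumor 15 was above tumor 2 for the sum but below it for the mean log2 CPM of the 10 genes (9.62 and 9.69). Among sgScramble tumors the sum was lowest in tumor 4 (4150), while tumor 5 (4195) was lowest for the 10 genes. The sum of 8 T cell markers, 7 of which rose, was 97.2 to 164 in sgScramble tumors and 353, 227, 309 and 292 in icOVA tumors 15, 16, 18 and 2, and there tumor 16 was the lowest of its group. Fibroblast markers, 0 of 5 called, summed to 4245 to 10591 in sgScramble tumors and to 16219, 3829, 22968 and 5807 in the icOVA tumors, where tumor 18 was the highest and tumor 16 the lowest. Macrophage markers, 2 of 5 higher, summed to 562 to 788 and to 797 to 1173. Liver markers, 1 of 3 lower, summed to 45.1 to 107.5 in sgScramble tumors and to 1.47 to 29.0 in icOVA tumors. No gene of these lists was at 0 in all tumors, and the part of these cells in the GTPase values was not tested.

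**Figure D2:**
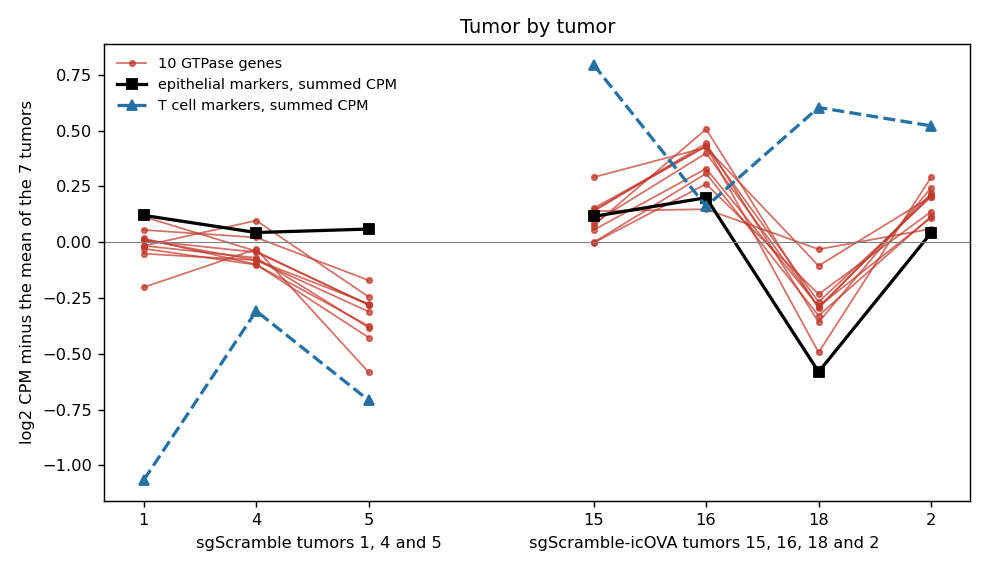
Log2 CPM of each tumor minus the mean of the 7 tumors, for the 10 genes (thin red lines, 1 per gene), the summed epithelial markers (black squares) and the summed T cell markers (blue triangles). Lines join tumors of a group for reading only, as tumors have no order. The 10 genes are highest in tumor 16 and, among icOVA tumors, lowest in tumor 18, where the epithelial sum is 2692 CPM and the T cell sum is 309 CPM.

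When tumor 18 was left out, the members' log2 fold changes ran higher, with a median of 0.39. In that fit 7 of 10 had an unadjusted p under 0.05, against 4622 of 17185 genes in either direction. After adjustment 0 of 10 passed the threshold in edgeR. When tumor 5 was left out the median was 0.18. There 0 of 10 had an unadjusted p under 0.05, against 2936 of 17862 genes in either direction. In all 7 fits that each left out a tumor, 0 of 10 passed, with adjusted p values from 0.0646 to 0.987. Dropping tumor 1, 5 or 15 left 0 of all genes tested called in either direction. Dropping tumor 2 left 6 higher and 2 lower. In those fits a count of 0 was nearly fixed in advance and says little about the 10 genes. The fits that dropped tumor 4, 16 or 18 still called genes in both directions, and 0 of the 10 were among them.

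Profiles over the 7 tumors were compared with the mean of the 10 for genes outside all the lists used here. The closest were Mlkl, Ly75, Ereg, Flt1, Slfn10-ps and Ifi211. Genes of the lists, among them the other interferon-inducible GTPases, were not ranked and may lie closer. Likeness was the root mean square difference of log2 CPM after centering each gene on its own mean, among 14649 genes with a mean of at least 1 CPM, and it was 0.0432 for Mlkl and 0.0672 to 0.0708 for the other 5. Mlkl encodes the executor of necroptosis and Ifi211 belongs to the interferon-inducible family that holds Aim2. Mlkl had 88.4, 86.9 and 74.9 CPM in sgScramble tumors 1, 4 and 5, and 103, 115, 76.3 and 109 CPM in icOVA tumors 15, 16, 18 and 2. Like the GTPase genes, it was highest in tumor 16 and did not pass the test (log2 fold change 0.27 with SE 0.14 and edgeR adjusted p 0.258).

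Other GTPases of the same families did pass. Of 20 other interferon-inducible GTPase genes, 18 were in the table and tested, and 6 of the 18 rose in icOVA tumors (0 when scaled to Ptprc) and 0 fell, against 3.36% and 2.54% of all genes. The groups did not overlap for 8 of 18, against 11.3%. Gvin1 and Gm4070 are both among the 6, the 8 and the 18. Since 98.3% and 96.7% of their 76-base windows occurred in other genes, mostly in each other, these counts are not of fully separate genes. The median log2 fold change was 0.48, and all 18 were above 0, but below 0 when scaled to Ptprc. Their values and those of the 10 come from the same fit and share the same tumors, and the difference between the lists was not tested.

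Mx1, a dynamin-like GTPase gene induced mainly by type I and type III interferons, rose most. It had 15, 16.3 and 11.8 CPM in sgScramble tumors 1, 4 and 5, and 36.8, 24.2, 28.9 and 30.1 CPM in icOVA tumors 15, 16, 18 and 2. The groups did not overlap, and tumor 16, the highest for the 10 genes, was the lowest of the icOVA tumors for Mx1. The log2 fold change was 1.06 (with SE 0.17 and edgeR adjusted p 0.0258). Its relative Mx2 had 9.44, 5.92 and 6.62 CPM, and 6.69, 9.39, 7.53 and 10.4 CPM, with overlap and a log2 fold change of 0.21 (with SE 0.22 and edgeR adjusted p 0.559).

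On chromosome 5 the models of Gbp4 and Gbp8 overlap that of Gbp9, and how reads on overlapping models were counted is not given. Gbp4 had 685, 571 and 438 CPM in sgScramble tumors and 952, 1074, 772 and 1029 CPM in icOVA tumors, all above the sgScramble range (log2 fold change 0.76 with SE 0.17 and edgeR adjusted p 0.0469). Gbp8 had 91.9, 80.4 and 70.5 CPM, and 127, 135.5, 107 and 131 CPM, also without overlap (log2 fold change 0.63 with SE 0.12 and edgeR adjusted p 0.0309). Thus tumor 18, the lowest icOVA tumor for both, was still above the 3 sgScramble tumors. At most 7.87% of the windows of either gene occurred in another gene. Gbp10, which shares 77.6% of its windows, had 159, 111 and 82.9 CPM, and 154, 223, 97.2 and 169 CPM, a log2 fold change of 0.45 (with SE 0.30 and edgeR adjusted p 0.369).

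Gm12250, on chromosome 11 and 10543 bases before Igtp, encodes Irgb10, an effector IRG that breaks open bacteria. It had 89.4, 94.2 and 66.4 CPM in sgScramble tumors, and 134, 145.5, 110.3 and 134 CPM in icOVA tumors. No icOVA tumor lay within the sgScramble range (log2 fold change 0.65 with SE 0.14 and edgeR adjusted p 0.0415), and none of its windows occurred in another gene. The log2 ratio of Gm12250 to Igtp, chosen after their values were seen and so not tested, was -3.38, -3.24 and -3.47 in sgScramble tumors and -2.90, -3.22, -2.81 and -3.05 in icOVA tumors. The 4 icOVA tumors were all above the 3 sgScramble tumors in this ratio, by 0.37 on average.

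Gvin1 and Gm4070, which encode very large inducible GTPases, rose with log2 fold changes of 0.81 (with SE 0.16 and edgeR adjusted p 0.0349) and 0.82 (with SE 0.15 and edgeR adjusted p 0.0327). Since 98.3% of the windows of Gvin1 and 96.7% of those of Gm4070 occurred in other genes, mostly in each other, they cannot be read as separate genes. Tgtp1 and Tgtp2, the Irgb6 effector genes, share 77.1% and 81.2% and had log2 fold changes of 0.16 and 0.20, without passing. Gbp2b, beside Gbp2 on chromosome 3, ran from 4.71 to 18.9 CPM over the 7 tumors, and its log2 fold change was 0.21 (with SE 0.41 and edgeR adjusted p 0.776).

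The calls in this group depended on single tumors. The count of 6 became 0 without sgScramble tumor 1, without sgScramble tumor 5, without icOVA tumor 15 and without icOVA tumor 2. In the same 4 fits the number of genes higher in icOVA tumors among all genes tested was 0, 0, 0 and 6. DESeq2 called 8 of the 18, where it called 1558 of all 17489 genes higher, and limma-voom called 6.

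**Figure D3:**
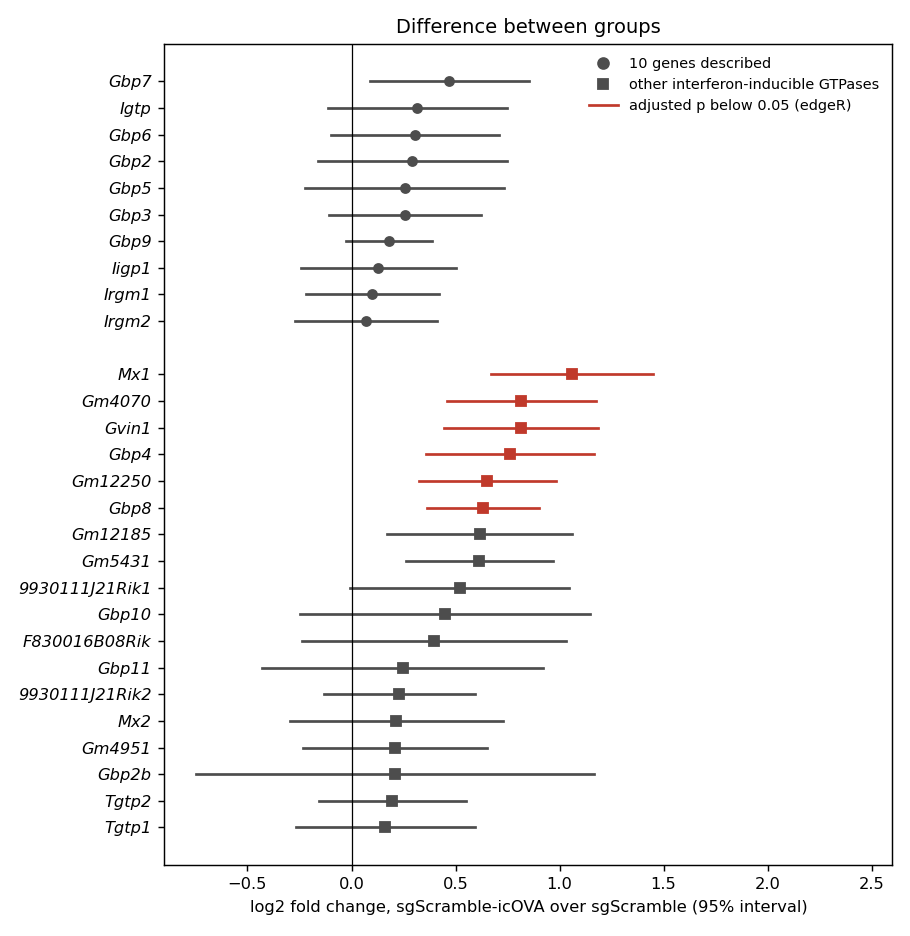
Log2 fold changes of icOVA over sgScramble tumors with 95% intervals in edgeR, for the 10 genes (circles) and 18 other interferon-inducible GTPase genes (squares). Red marks an adjusted p below the threshold of 0.05, which 0 of 10 and 6 of 18 passed, and all points are above 0 in this TMM scaling but below 0 when scaled to Ptprc. Gvin1 and Gm4070, both among the 6, share most of their sequence windows and cannot be read as separate genes.

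Upstream of the GTPases, the ligand Ifng had 11.4, 11.7 and 8.69 CPM in sgScramble tumors 1, 4 and 5, and 28.0, 22.1, 15.1 and 24.5 CPM in icOVA tumors 15, 16, 18 and 2. The groups did not overlap and tumor 18 was the lowest icOVA tumor (log2 fold change 1.08 with SE 0.22 and edgeR adjusted p 0.0353). It did not pass in limma-voom, and DESeq2 called it. Of 11 genes of IFN-γ signaling, 3 rose (0 when scaled to Ptprc) and 0 fell, against 3.36% and 2.54% of all genes. Their median was 0.30. The others that rose were Irf8, a transcription factor of myeloid and lymphoid cells (log2 fold change 0.79 with SE 0.13 and edgeR adjusted p 0.0271), and Socs1, an inhibitor of JAK signaling (log2 fold change 0.44 with SE 0.096 and edgeR adjusted p 0.0426). In this list DESeq2 called 4 and limma-voom called 2.

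The other genes of the list did not pass in edgeR. Irf1 had 592, 548 and 524 CPM in sgScramble tumors 1, 4 and 5, and 662, 774, 546 and 748 CPM in icOVA tumors 15, 16, 18 and 2, with a log2 fold change of 0.30 (with SE 0.13 and edgeR adjusted p 0.182). Irf1 was highest in tumor 16, as the GTPase genes were, and tumor 18 lay between the sgScramble tumors. Log2 fold changes were 0.38 for Jak1, 0.13 for Jak2, 0.16 for the receptor chain Ifngr1 and -0.27 for Ifngr2, with adjusted p values from 0.0706 to 0.475 in edgeR.

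Among 18 other targets of IFN-γ, 4 rose (0 when scaled to Ptprc) and 0 fell, against 3.36% and 2.54% of all genes. Their median was 0.39. In 10 of them every icOVA tumor was above every sgScramble tumor, against 11.3% of all genes. The 4 that rose were Psmb8 of the immunoproteasome (0.58), Nos2, which makes nitric oxide (1.10), Cd274, which encodes PD-L1 (0.93), and Serpina3g (1.02). Cd274 had 207, 178 and 149 CPM in sgScramble tumors and 333, 396.5, 242 and 385 CPM in icOVA tumors, so that every icOVA tumor was above them, and it was also highest in tumor 16. The chemokine genes Cxcl9 and Cxcl10 had log2 fold changes of 0.44 (edgeR adjusted p 0.184) and 0.48 (edgeR adjusted p 0.0534). DESeq2 called 11 of these 18, where it called 1558 of all 17489 genes higher, and limma-voom called 3.

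Genes of type I interferon signaling and its targets were counted in the same way. Irf7 was the 1 of 7 signaling genes tested that rose, with a log2 fold change of 0.36 (with SE 0.066 and edgeR adjusted p 0.0314), and the median of the 7 was 0.088. Of 17 type I interferon-stimulated genes 3 rose (0 when scaled to Ptprc), Ifit2 (0.39), Rsad2 (0.94) and Cmpk2 (0.78), with a median of 0.30. Among all genes tested in edgeR 3.36% rose. DESeq2 called 2 of the signaling genes and 5 of the stimulated genes, and limma-voom called 1 and 3. Isg15 (0.30), Ifit1 (0.23), Ifit3 (0.26) and Usp18 (0.17) did not pass, with adjusted p values from 0.193 to 0.516 in edgeR. Each of the edgeR counts was 0 in the fit without sgScramble tumor 1, in that without sgScramble tumor 5 and in that without icOVA tumor 15, as 0 genes of the whole table were then called higher.

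Partners of the GTPases were examined as well, beside the shares of all genes in edgeR, 3.36% higher and 2.54% lower. An unadjusted p under 0.05 in edgeR, in either direction, was found for 4762 of the 17489 genes. Of 9 inflammasome genes 2 rose in edgeR, the sensor Nlrp3 (log2 fold change 1.12 with SE 0.19 and edgeR adjusted p 0.0271) and the adaptor Pycard (log2 fold change 1.02 with SE 0.22 and edgeR adjusted p 0.0413), while Casp1 (0.73), Casp4 (0.15), which encodes the mouse caspase-11, Aim2 (0.16) and Gsdmd (-0.09) did not pass in edgeR. Of the 9, limma-voom called 1 (Nlrp3) and DESeq2 called 4, with Casp1 and Il1b added. Of 11 genes of the autophagy conjugation machinery, which places IRGs and GBPs on vacuoles, 0 passed in edgeR and 0 in limma-voom, 4 had an unadjusted p under 0.05 and DESeq2 called 2 higher and 2 lower. Their median was -0.12. Of 10 dynamin superfamily genes not known as interferon-inducible, 0 passed in edgeR and 0 in limma-voom, 1 had an unadjusted p under 0.05 and DESeq2 called 1 lower (Atl1). The median was -0.03, and Dnm2 and Atl3 had log2 fold changes of 0.10 and -0.07.

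**Figure D4:**
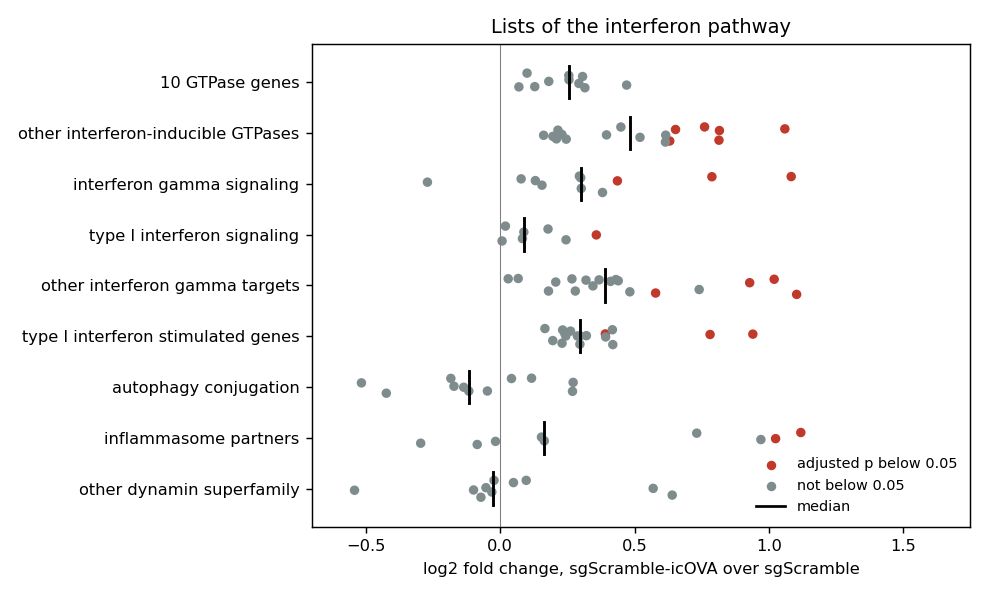
Log2 fold changes of icOVA over sgScramble tumors for the genes of each list, with the median as a black bar and genes below an adjusted p of 0.05 (edgeR) in red. The median is 0.26 for the 10 GTPase genes, 0.48 for the other interferon-inducible GTPases, 0.39 for other IFN-γ targets and -0.12 for autophagy conjugation, in the TMM scaling, and the lists' positions relative to 0 shift by about the -1.10 of all genes when scaled to Ptprc.

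**Figure D5:**
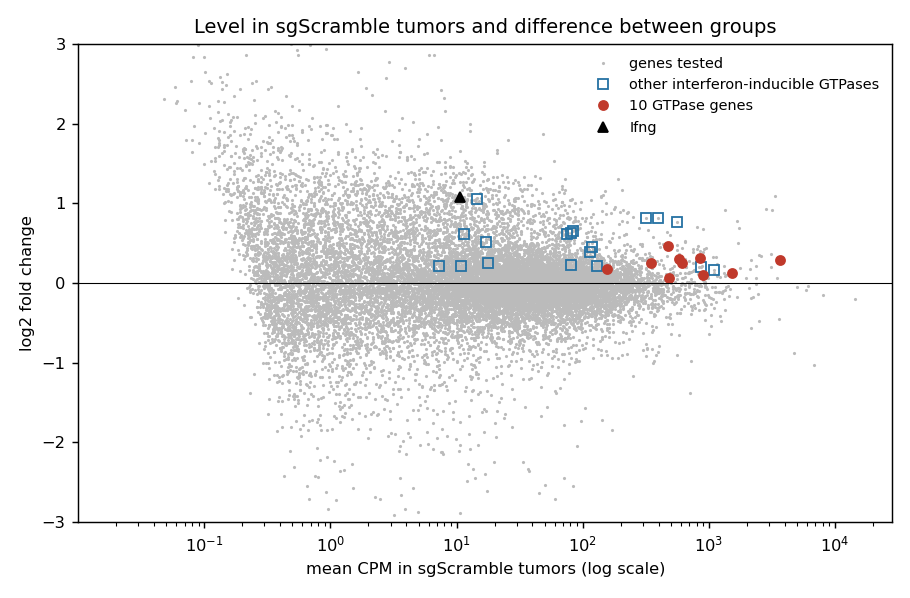
Mean CPM in sgScramble tumors (log scale) against the log2 fold change of icOVA over sgScramble tumors, with genes tested in gray, the 10 GTPase genes in red, the 18 other interferon-inducible GTPases as blue squares and Ifng as a black triangle. The vertical axis runs from -3 to 3, and genes beyond it are not drawn. The 10 genes lie at the abundant end between 0.07 and 0.47, above 0 in this scaling and below 0 when scaled to Ptprc, while Ifng lies at 10.6 CPM and 1.08.

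The labels were checked with the transgene and the lineage of the tumors. OVA had 4.34, 2.58 and 2.94 CPM in sgScramble tumors and 185.5, 308, 98.1 and 248 CPM in icOVA tumors, and tumors 16 and 18 were again the highest and the lowest of the icOVA group, as for each of the 10 genes. The part of the OVA level in the GTPase values was not tested. Ptprc, the pan-leukocyte gene CD45, had 132, 175 and 116 CPM, and 363, 258, 311 and 260.0 CPM, and rose (log2 fold change 1.08 with SE 0.18 and edgeR adjusted p 0.0271). Krt19 had 613 and 638 CPM on average and did not pass. Total counts ran from 30904855 to 37510591, so counting error is small beside the spread between tumors.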

How the data were processed

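RNA from 7 subcutaneous tumors was sequenced. The authors deposited whole-number read counts per gene without normalization, in 1 table of 22628 Ensembl genes and the OVA transgene. The labels name poly(A) RNA while the study's methods name a stranded total RNA kit with 76-base reads. The genome build is mm10 per the submitters' processing notes, and the aligner, counting tool, annotation release and use of strand are not given in the sources used here. Symbols (22414 matched), coordinates and exonic lengths came from GENCODE M21 on GRCm38. Total counts were 30904855 to 37510591.

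Counts were tested with edgeR 4.0.16 (filterByExpr with minimum count 10 and minimum total 15, TMM, quasi-likelihood F test, no covariates) in R 4.3.3, with Benjamini-Hochberg adjustment over the 17489 genes tested and a threshold of 0.05. The SE is the log2 fold change divided by the square root of F. CPM used TMM-scaled library sizes, and log2 CPM had a prior count of 2 (0.5 as an alternative). RPKM divided CPM by the union of exons in kilobases. Alternatives were DESeq2 1.42.0, limma-voom (limma 3.58.1), total count and upper quartile scaling, scaling to Tbp or Ptprc, no filter or at least 10 counts in every tumor, sums of related genes (Gbp6 with Gbp10, Tgtp1 with Tgtp2, Gbp4 with Gbp8, but not Gvin1 with Gm4070), and fits that each left out 1 tumor. The scripts were tested on simulated data.

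Transcripts were cut into 76-base windows, and windows also found in another gene were counted as shared. No row of a GTPase gene was identical to another row. The genes and lists were chosen with earlier results of these data known. The genes named are the 10, the 18 other interferon-inducible GTPases in the table, fixed genes of the pathway lists, OVA, Ptprc, Tbp and Krt19, and the 6 genes outside all lists with the profile most like the mean of the 10. Genes called in a list, or by DESeq2, are named after their values were seen. Gvin2, Gvin3, Ifnb1 and Ifna4 are not analysed here, nor are features of the proteins. A gene of the named set is not reported here. The precision of a share of counts is its 95% Wilson interval.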

Additional observations from a re-analysis of the deposited data

Results flagged for a closer look

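A single sample stood far from the rest of its group for 2 of the 66 genes examined, where chance gives about 1 in 20 groups and so about 3.3 of 66. Only the icOVA group, with 4 tumors, was examined. In icOVA tumor 15 Ifngr1, a chain of the IFN-γ receptor, had 198 CPM against 177, 178 and 178 CPM in tumors 16, 18 and 2, a gap of 0.933 of the whole range beyond Dixon's critical value for 4 samples. In the same tumor Dnm2, a dynamin of endocytosis, had 127 CPM against 114, 115 and 115 CPM, a gap of 0.922 of the range. None of the 10 GTPase genes was set apart in this way.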

How the results depend on the processing

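Alternatives that kept all tumors and did not scale to Ptprc gave 524 values of named genes, of which 507 had the same direction and were called or not called as before, 13 newly passed, 3 no longer passed and 1 turned, Krt19 to -0.0029 with limma-voom. DESeq2 called 1558 genes higher and 1278 lower instead of 588 and 444, 1 of the 10 GTPase genes, 11 other IFN-γ targets and 5 type I interferon-stimulated genes. Scaling to Tbp left 199 genes lower. No paired analysis was possible because no tumor number occurs in both groups.

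Leaving out 1 tumor at a time gave 0 to 1014 genes higher and 0 to 716 lower, with 0 higher when sgScramble tumor 1 or 5 or icOVA tumor 15 was left out, and 6 without icOVA tumor 2. Fewer tumors enter these fits, and the cause was not tested further. Other interferon-inducible GTPases called higher were 0 to 6, IFN-γ signaling genes 0 to 4, other IFN-γ targets 0 to 7 and type I interferon-stimulated genes 0 to 6, each at 0 in those 4 fits. The 10 GTPase genes stayed at 0 called, with a median log2 fold change of 0.15 to 0.39. Of the 462 values of named genes in these fits 396 were unchanged in direction and call, and 3 turned, Irgm2 (-0.030 without icOVA tumor 16, to 0.18), and Gbp2b (-0.045 without icOVA tumor 15, to 0.48) and Krt19 (-0.080 without icOVA tumor 15, to 0.25).

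Scaling to Ptprc, which itself rose, moved the median of all genes to -1.10, so that 70 genes were higher and 14053 lower, 10 of the 10 GTPase genes were called lower with a median of -0.81, and 0 other interferon-inducible GTPases, 0 IFN-γ signaling genes, 0 other IFN-γ targets and 0 type I interferon-stimulated genes were higher. It turned 59 of 65 log2 fold changes. Among the 10 they were Gbp2 -0.76, Gbp3 -0.81, Gbp5 -0.80, Gbp6 -0.75, Gbp7 -0.58, Gbp9 -0.90, Igtp -0.74, Irgm1 -0.96, Irgm2 -0.996 and Iigp1 -0.94. Among the other GTPases they were Gbp2b -0.88, Gbp4 -0.30, Gbp8 -0.45, Gbp10 -0.60, Gbp11 -0.82, Tgtp1 -0.90, Tgtp2 -0.87, Gm12250 -0.40, Gm4951 -0.85, F830016B08Rik -0.65, Gm5431 -0.45, 9930111J21Rik1 -0.54, 9930111J21Rik2 -0.84, Gvin1 -0.25, Gm4070 -0.24, Gm12185 -0.42, Mx1 -0.030 and Mx2 -0.86. The remaining ones were Ifngr1 -0.96, Jak1 -0.71, Jak2 -0.95, Irf1 -0.78, Irf8 -0.30, Socs1 -0.64, Cxcl9 -0.62, Cxcl10 -0.58, Nlrc5 -0.75, Ciita -0.87, Tap1 -0.79, Psmb9 -0.81, Cd274 -0.13, Isg15 -0.77, Ifit1 -0.84, Ifit3 -0.80, Usp18 -0.91, Irf7 -0.73, Stat2 -0.89, Irf9 -1.08, Aim2 -0.95, Casp1 -0.35, Casp4 -0.92, Dnm2 -1.003, Krt19 -1.05, Mlkl -0.80, Ly75 -0.89, Ereg -0.70, Flt1 -0.82, Slfn10-ps -0.89 and Ifi211 -0.77.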
